A study of Mus musculus with 4 samples.

Results

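The transcripts described here are those of Trp53, the gene of the transcription factor p53, of its regulators Mdm2 and Mdm4, and of 7 genes through which p53 arrests the cell cycle or feeds back on its own activity: Cdkn1a, Btg2, Plk2, Sesn1, Ccng1, Trp53inp1 and Zmat3. They were chosen by name, with earlier results of these data known, and all 10 were found among the 22138 genes measured. RNA was sequenced from TT2, a line of female mouse embryonic stem cells (C57BL/6xCBA) from the preimplantation embryo, cultured feeder-free in medium with serum and LIF, the cytokine that keeps such cells undifferentiated. All 4 libraries came from cells transfected with small interfering RNA (siRNA), first at 100 nM and 24 hours later at 50 nM: control siRNA in 2 libraries, and siRNA against Hnrnpk in the other 2. By the treatment protocol RNA was taken about 72 hours after the second transfection, whereas the design text counts the 72 hours from transfection without saying which. The product of Hnrnpk, hnRNP K, binds RNA and DNA, and the title of the series connects it with silencing by the histone methyltransferase SETDB1. By the labels the groups differ only in the siRNA, which lowers a transcript and does not remove the gene, and the cells are of 1 line.

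p53 is held low in unstressed cells by MDM2, a ubiquitin ligase that marks it for degradation, and by MDM4 (MDMX), a relative of MDM2 that binds p53 and blocks its activity. When DNA is damaged or ribosome production is disturbed, p53 escapes this control and activates genes that stop the cell cycle, repair DNA or kill the cell. Mdm2 is itself a p53 target, which closes a negative feedback loop. Mouse embryonic stem cells carry abundant p53, and hnRNP K has been described as a partner of p53 in transcription and as a protein that MDM2 marks for degradation.

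The DNA just before the annotated starts of these genes was examined first. RefSeq windows of 250 bases before a start (build GRCm38.p6) were held for 8 of the 10 genes, in 11 windows, and not for Trp53inp1 and Zmat3. Each was searched for the p53 response element, a 20-base consensus made of 2 adjacent decamers that reads the same on both strands, allowing 1 mismatch. It was found in 2 of the 11 windows, those of Ccng1 and of the upstream start of Cdkn1a, against 0.0761% of all 32851 windows. A single decamer with no mismatch, searched for by itself and so also counted inside a longer match, was present in 5 of the 11 windows (Trp53, Mdm2, Cdkn1a, Sesn1 and Ccng1), against 7.13% of all. Chosen after these sequences had been seen, the cyclic AMP response element TGACGTCA, which also reads the same on both strands, was found in 2 of the 11 windows, those of Btg2 and Plk2, against 1.55% of all windows. The 4 windows with a match of the 20-base consensus or of the response element are printed (5′ to 3′ on the strand of the gene). The other windows, among them that of Mdm2 and that of the downstream start of Cdkn1a, held neither and are not printed. A link between these matches and the size of the changes was not tested. Capitals mark the p53 match in Cdkn1a and Ccng1 and the cyclic AMP response element in Btg2 and Plk2.
Cdkn1a, upstream start, chr17:29090729-29090978, plus strand: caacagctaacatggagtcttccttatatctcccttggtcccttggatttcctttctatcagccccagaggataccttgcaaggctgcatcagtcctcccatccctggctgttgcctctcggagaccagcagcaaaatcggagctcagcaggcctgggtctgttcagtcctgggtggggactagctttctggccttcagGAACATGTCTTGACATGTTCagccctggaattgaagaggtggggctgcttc
Ccng1, chr11:40755287-40755536, minus strand: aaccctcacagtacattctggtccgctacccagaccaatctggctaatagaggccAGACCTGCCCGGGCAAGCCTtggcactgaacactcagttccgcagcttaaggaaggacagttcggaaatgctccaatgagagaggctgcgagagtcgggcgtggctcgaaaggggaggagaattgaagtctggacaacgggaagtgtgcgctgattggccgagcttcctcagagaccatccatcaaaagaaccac
Btg2, chr1:134079156-134079405, minus strand: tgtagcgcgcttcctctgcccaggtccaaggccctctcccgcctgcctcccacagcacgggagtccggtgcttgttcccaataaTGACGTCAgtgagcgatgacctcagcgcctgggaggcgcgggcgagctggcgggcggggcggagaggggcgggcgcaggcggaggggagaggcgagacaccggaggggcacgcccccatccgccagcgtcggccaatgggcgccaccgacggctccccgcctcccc
Plk2, chr13:110394794-110395043, plus strand: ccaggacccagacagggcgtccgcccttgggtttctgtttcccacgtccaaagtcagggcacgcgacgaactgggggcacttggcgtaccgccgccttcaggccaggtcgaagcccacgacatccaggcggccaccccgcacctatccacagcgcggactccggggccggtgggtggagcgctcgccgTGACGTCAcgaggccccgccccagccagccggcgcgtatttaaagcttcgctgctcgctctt
The Cdkn1a match began 51 bases before the upstream start, which lies 2790 bases before the other annotated start of the gene, and the Ccng1 match began 195 bases before its start. The response elements began 166 and 62 bases before the starts of Btg2 and Plk2. These matches are descriptions of the letters: binding was not measured, and the windows leave out introns and more distant DNA.

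**Figure D1:**
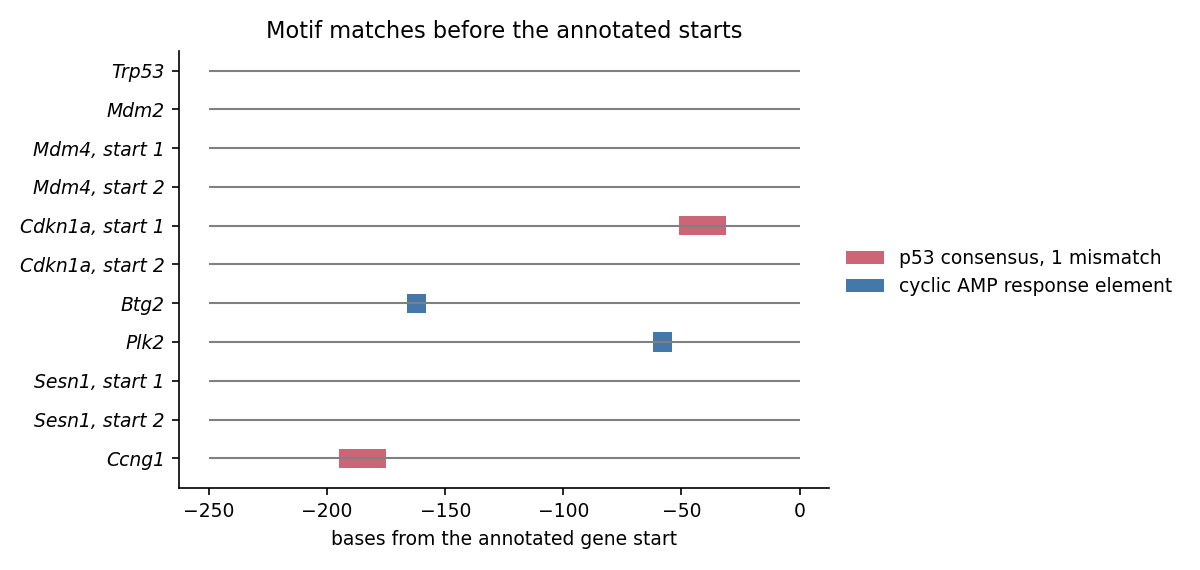
Motif matches in the 11 windows, by distance in bases from the annotated start (0). Lines are the windows of 250 bases, red bars the p53 consensus with 1 mismatch and blue bars the cyclic AMP response element; starts of a gene are numbered in the order of their coordinates on the chromosome. The p53 match is seen in Cdkn1a and Ccng1, and the other element in Btg2 and Plk2.

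Values were RPKM (reads scaled to transcript length and library size). The annotation is not given, so the length used for each gene is unknown. Comparisons between the levels of different genes depend on that length, whereas the ratio of libraries within a gene does not. They were tested as log2(RPKM + 0.5) with limma, and a gene was called where its p, adjusted by Benjamini-Hochberg over all 12486 genes tested, was under 0.05. Testing required a mean level of 0.5 RPKM or more, which all 10 genes reached. The siRNA lowered its target: Hnrnpk stood at 236 and 226 RPKM with control siRNA, against 68.0 and 70.5 RPKM with Hnrnpk siRNA (log2 change -1.73, SE 0.0629, limma adjusted p = 6.59e-08). The relative depth of the libraries, taken from the commonest ratio between low values, was 0.981 in control replicate 2 and 0.891 and 0.881 in the Hnrnpk siRNA libraries, with control replicate 1 set to 1. In that order, a share of 0.051, 0.067 and 0.074 of the low genes compared had the commonest ratio, so these depths are rough. The absolute depth is unknown. The design text calls the replicates biological, but does not say whether they were separate cultures, and the p-values measure the spread between these libraries. The smallest two-sided p that an exact permutation test allows for 2 libraries against 2 is 0.333, and the calls therefore depend on limma's pooling of variance across genes.

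Of the 10 genes, 9 were called higher after Hnrnpk siRNA and none lower, where 32.2% of all genes tested were called higher and 35.0% lower. The genes came in a group of 6 with large changes and a group of 4 with small ones. Plk2, Trp53inp1, Ccng1, Cdkn1a, Btg2 and Mdm2 rose by log2 changes of 1.61 to 2.90, with a median of 1.88. Trp53, Sesn1 and Zmat3 rose by 0.28 to 0.43, and Mdm4, at 0.19, was not called. The 6 genes called with a log2 change of at least 1 compare with 4.0% of all genes tested that were called higher at that size; none of the 10 was called lower at that size, as 4.52% of all were. Over the 10 genes the median log2 change was 1.62, and over all genes tested it was -0.015. The groups did not overlap in any of the 10 genes, with Hnrnpk siRNA on the higher side, where 41.2% of the genes tested had Hnrnpk siRNA wholly above and 43.5% wholly below control.

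**Figure D2:**
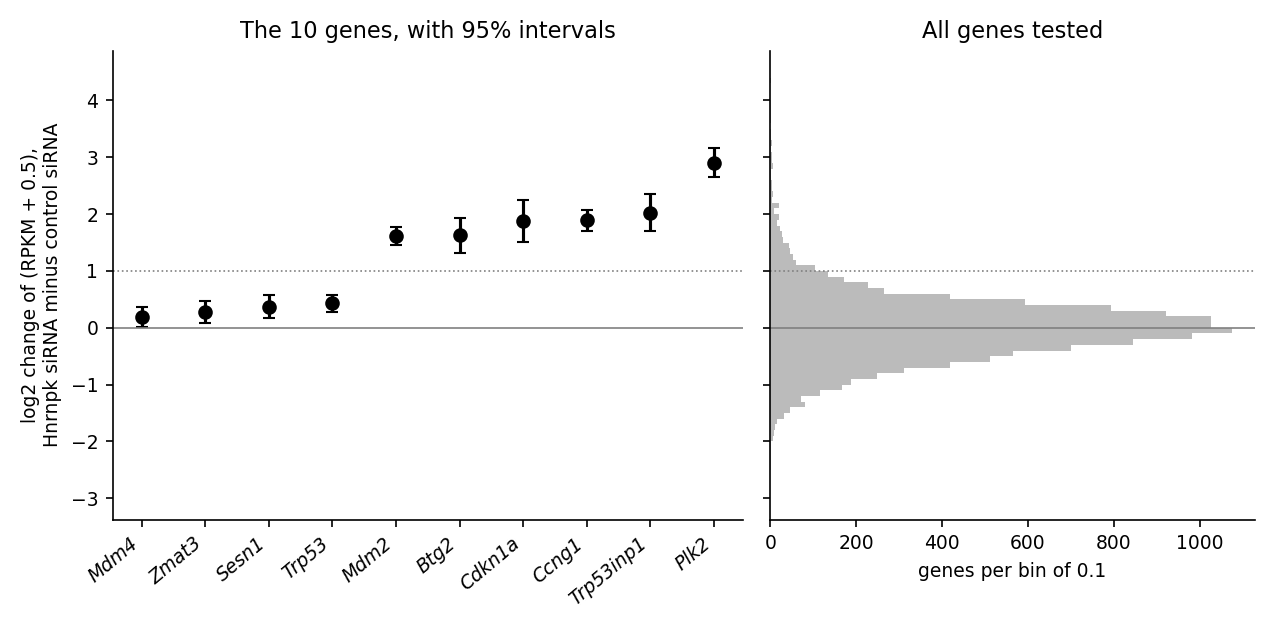
Left, log2 change of (RPKM + 0.5) after Hnrnpk siRNA for each of the 10 genes, with 95% intervals from limma; right, the number of genes tested in each bin of 0.1 of the same change. The dotted line marks a log2 change of 1: 6 genes lie above it, from 1.61 to 2.90, and 4 lie between 0.19 and 0.43.

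Trp53 (ENSMUSG00000059552; GRCm38 chromosome 11, 69580359 to 69591873, plus strand) had the highest RPKM of the 10 genes in the control libraries, at 280 and 284 RPKM, above 98.8% of the genes tested. After Hnrnpk siRNA it stood at 385 and 375 RPKM. The groups did not overlap and the replicates lay close together: the mean was 282 ± 2.97 RPKM in control and 380 ± 6.99 RPKM in Hnrnpk siRNA libraries (SD, n = 2 each), or 1.35 times as much. On the log2 scale Trp53 rose by 0.43 (SE 0.0657, limma adjusted p = 0.000290), and 83.2% of all genes tested had a lower log2 change.

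Mdm2 and Mdm4, which restrain the p53 protein together, started from overlapping RPKM values and ended apart. Mdm2 (ENSMUSG00000020184; GRCm38 chromosome 10, 117688875 to 117710758, minus strand) was at 41.1 and 36.5 RPKM with control siRNA, against 117 and 121 RPKM with Hnrnpk siRNA. Mdm2 thus stood in both Hnrnpk siRNA libraries near 3 times its control level (ratio of means 3.08; log2 change 1.61, 95% interval 1.45 to 1.77, limma adjusted p = 1.76e-07). Mdm4 (ENSMUSG00000054387; GRCm38 chromosome 1, 132959484 to 133030561, minus strand) was at 40.4 and 34.9 RPKM with control siRNA, against 44.6 and 41.4 RPKM with Hnrnpk siRNA. Its lowest Hnrnpk siRNA library was barely above its highest control library, and its log2 change of 0.19 (95% interval 0.011 to 0.37, limma adjusted p = 0.0583) was not called. Without control replicate 1, however, the Mdm4 change was 0.30 and was called (adjusted p = 0.00546), as it was at 0.21 with scaling by median ratios (adjusted p = 0.0366). The range of its adjusted p over the 13 alternatives tried was 0.00546 to 0.359.

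The balance of the 2 regulators shifted with this. Mdm2 over Mdm4, as a ratio of RPKM, was 1.02 and 1.05 in the control libraries and 2.63 and 2.93 after Hnrnpk siRNA, and the groups did not overlap (exact two-sided permutation p = 0.333, the smallest that 2 against 2 can give). Trp53 over Mdm2 went the other way, from 6.81 and 7.79 to 3.28 and 3.10. Trp53 over Mdm4 was 6.92 and 8.14 in the control libraries and 8.64 and 9.07 after Hnrnpk siRNA. Relative to the Trp53 transcript there was therefore more Mdm2 and slightly less Mdm4 RNA in the Hnrnpk siRNA libraries. Protein was not measured.

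Among the genes that stop the cell cycle, Cdkn1a (ENSMUSG00000023067; GRCm38 chromosome 17, 29090976 to 29100727, plus strand) encodes p21, the inhibitor of cyclin-dependent kinases through which p53 blocks entry into S phase. It was at 25.6 and 16.2 RPKM with control siRNA, against 73.4 and 79.5 RPKM with Hnrnpk siRNA. The control libraries differed by a factor of 1.58, yet the lower Hnrnpk siRNA library was far above both of them. On the log2 scale Cdkn1a rose by 1.88 (SE 0.162, limma adjusted p = 7.86e-06). In GENCODE M21, 7.68% of the exonic bases of Cdkn1a are shared with AC167363.2, an unclassified gene on the opposite strand, and since nothing states whether the counting used strand, reads from the overlap cannot be told apart.

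Btg2 (ENSMUSG00000020423; GRCm38 chromosome 1, 134075170 to 134079120, minus strand) encodes an antiproliferative protein that recruits the CCR4-NOT deadenylase to messenger RNA. It was at 20.2 and 13.9 RPKM with control siRNA, against 53.03 and 52.4 RPKM with Hnrnpk siRNA (log2 change 1.62, SE 0.135, limma adjusted p = 6.41e-06). Its Hnrnpk siRNA libraries lay close together and its control libraries did not.

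Plk2 (ENSMUSG00000021701; GRCm38 chromosome 13, 110395046 to 110400844, plus strand), a polo-like kinase active in G1 and in centriole duplication, changed most of the 10. It was at 12.6 and 9.31 RPKM with control siRNA, against 83.9 and 84.5 RPKM with Hnrnpk siRNA. The ratio of means was 7.69 and the log2 change 2.90 (SE 0.113, limma adjusted p = 9.33e-08), the 19th highest of all genes tested.

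Of the genes in feedback and stress control, Ccng1 (ENSMUSG00000020326; GRCm38 chromosome 11, 40748552 to 40755311, minus strand) encodes cyclin G1, which brings the phosphatase PP2A to MDM2. It was at 127 and 106 RPKM with control siRNA, against 428 and 436 RPKM with Hnrnpk siRNA (log2 change 1.89, SE 0.0855, limma adjusted p = 2.00e-07). In RPKM Ccng1 thereby passed Trp53: Ccng1 over Trp53 was 0.454 and 0.375 in the control libraries and 1.11 and 1.16 after Hnrnpk siRNA. Which of the 2 is the higher depends on the lengths used, which are not given. Trp53 has 4045 exonic bases but 1867 in its longest coding transcript, and Ccng1 has 3512 by both measures.

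Trp53inp1 (ENSMUSG00000028211; GRCm38 chromosome 4, 11156431 to 11174379, plus strand) encodes a protein that promotes phosphorylation of p53 and takes part in autophagy. It was at 32.6 and 21.8 RPKM with control siRNA, against 113 and 106 RPKM with Hnrnpk siRNA (log2 change 2.02, SE 0.145, limma adjusted p = 2.62e-06). As for Cdkn1a, the spread between the control libraries was wide and much smaller than the distance between the groups.

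Sesn1 and Zmat3, also textbook p53 targets, moved little. Sesn1 (ENSMUSG00000038332; GRCm38 chromosome 10, 41809935 to 41908424, plus strand) encodes sestrin 1, which restrains the growth kinase complex mTORC1. It was the lowest of the 10, at 7.77 and 6.94 RPKM with control siRNA, against 9.06 and 10.3 RPKM with Hnrnpk siRNA (log2 change 0.37, SE 0.0883, limma adjusted p = 0.00431). Without Hnrnpk siRNA replicate 2 the Sesn1 change was 0.29 and was no longer called (adjusted p = 0.0626).

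Zmat3 (ENSMUSG00000027663; GRCm38 chromosome 3, 32334792 to 32366014, minus strand) encodes a zinc finger protein that binds RNA and regulates splicing. It was at 37.3 and 33.0 RPKM with control siRNA, against 45.6 and 40.1 RPKM with Hnrnpk siRNA (log2 change 0.28, SE 0.0838, limma adjusted p = 0.0139). The Zmat3 call was lost without control replicate 2 (0.19, adjusted p = 0.0681), without Hnrnpk siRNA replicate 1 (0.19, adjusted p = 0.112) and with no filter on low genes (adjusted p = 0.0610). The 95% intervals of both small changes, 0.17 to 0.57 for Sesn1 and 0.093 to 0.47 for Zmat3, end below those of the 6 large ones, the lowest of which starts at 1.32.

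**Figure D3:**
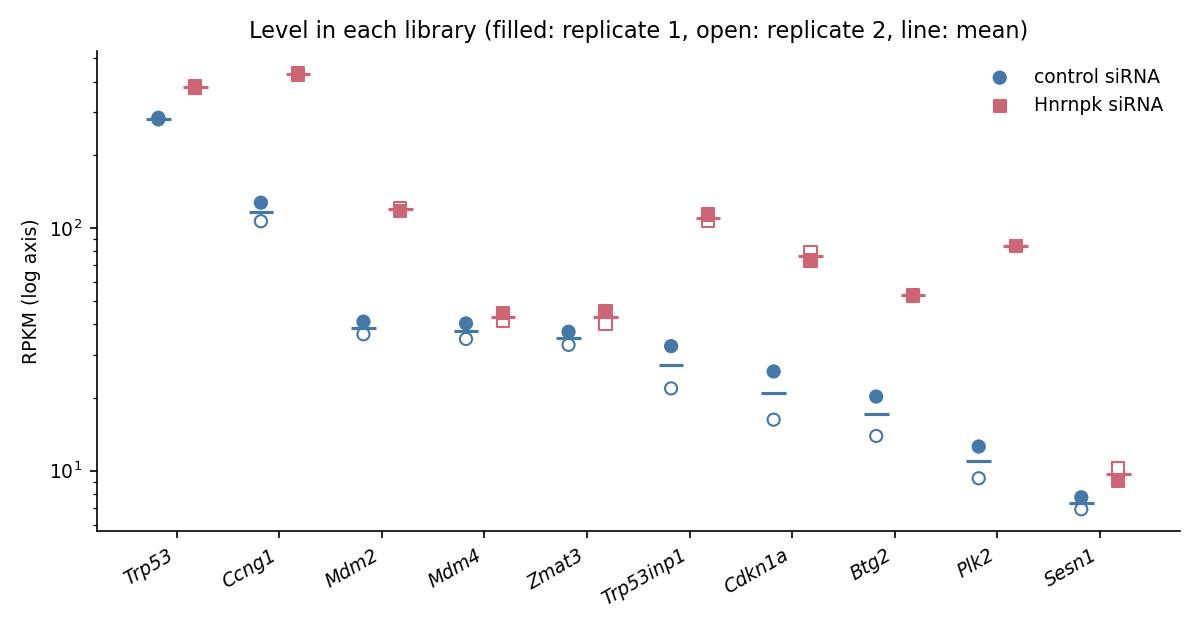
RPKM of the 10 genes in each of the 4 libraries on a log axis, ordered by the control mean. Circles are control siRNA and squares Hnrnpk siRNA, filled for replicate 1 and open for replicate 2, with lines at the means. Plk2 moves from 10.9 to 84.2 RPKM on average, while the libraries of Zmat3 lie between 33.0 and 45.6 RPKM.

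The order of the RPKM values changed between the groups. Within a group this order depends on the gene lengths used, which are not given. By mean RPKM in the control libraries it was Trp53 (282), Ccng1 (117), Mdm2 (38.8), Mdm4 (37.6), Zmat3 (35.2), Trp53inp1 (27.2), Cdkn1a (20.9), Btg2 (17.0), Plk2 (10.9) and Sesn1 (7.35). The ranges of neighbours overlapped from Mdm2 to Zmat3 and from Trp53inp1 to Btg2, so the order within those runs is not settled. After Hnrnpk siRNA the order of the mean RPKM was Ccng1 (432), Trp53 (380), Mdm2 (119), Trp53inp1 (110), Plk2 (84.2), Cdkn1a (76.4), Btg2 (52.7), Mdm4 (43.0), Zmat3 (42.8) and Sesn1 (9.66), and of the neighbours only Mdm4 and Zmat3 overlapped. Plk2 moved from the ninth place to the fifth, and Mdm4 from the fourth to the eighth.

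The difference between the control libraries ran mostly in the same direction for these genes. Control replicate 1 was above control replicate 2 in 9 of the 10 genes, all but Trp53, and in 57.3% of all genes tested. The median difference, replicate 1 minus replicate 2, was 0.23 on the log2 scale over the 10 genes and 0.023 over all genes tested. It exceeded 0.5 in Cdkn1a (0.64), Trp53inp1 (0.57) and Btg2 (0.52), 3 of the 10 genes, against 0.601% of all. That share leaves out genes with replicate 2 the higher, so the size of the difference regardless of direction was not compared. Between the Hnrnpk siRNA libraries replicate 1 was the higher in 5 of the 10 genes, with a median log2 difference of 0.0031. Over all genes tested it was the higher in 42.2%, with a median log2 difference of -0.0198. Leaving out control replicate 1 accordingly raised the log2 change, to 2.20 for Cdkn1a, 2.30 for Trp53inp1 and 1.89 for Btg2, and leaving out control replicate 2 lowered it, to 1.56, 1.74 and 1.36.

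**Figure D4:**
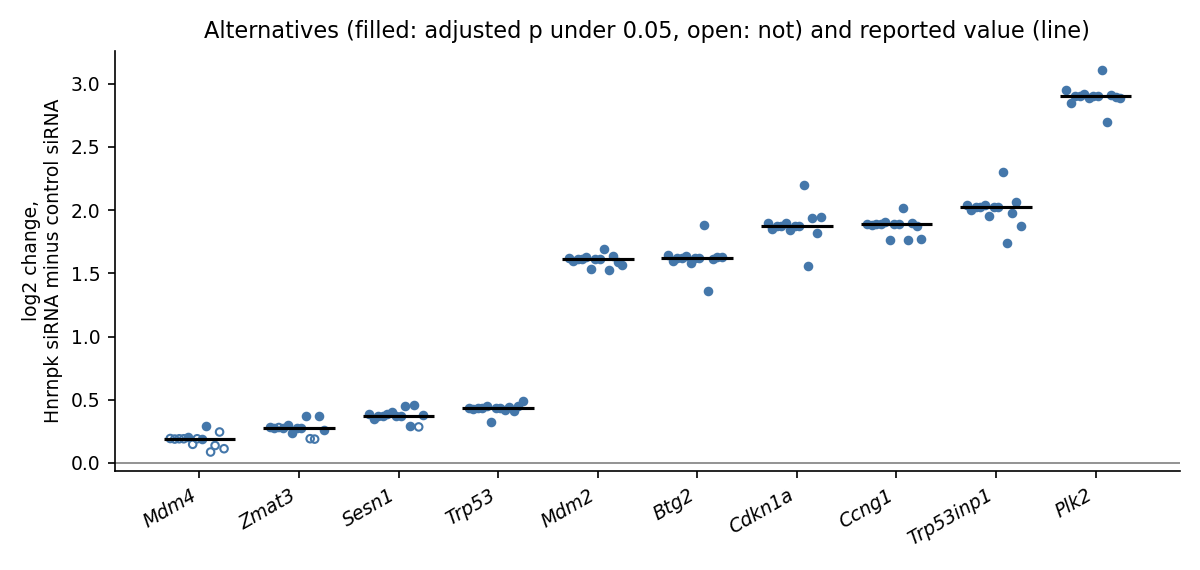
Log2 change after Hnrnpk siRNA for each of the 10 genes under the 13 alternatives tried (points, filled where the adjusted p is under 0.05) and as reported (lines). All points lie above 0; open points occur in Mdm4, Zmat3 and Sesn1.

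Other genes of the pathway were followed by lists that leave out the 10 genes. The lists were chosen by name with earlier results of these data known, so their counts are descriptions. Further feedback and arrest targets were called higher in 15 of 19 tested members and lower in 1, against 32.2% and 35.0% of all genes tested, with a median log2 change of 0.73. Trp73, a p53 relative that is also a target, rose from 0.944 and 0.795 RPKM to 4.92 and 5.04 RPKM (log2 change 2.002). Ddit4, an inhibitor of mTORC1, rose from 16.2 and 14.0 to 35.6 and 41.9 RPKM (log2 change 1.33), and Rchy1, a ubiquitin ligase for p53, from 17.3 and 18.2 to 33.7 and 36.3 RPKM (log2 change 0.96). These 3 had limma adjusted p of 2.34e-07, 2.51e-06 and 2.53e-06. At the other end, Ccng2, the paralog of Ccng1, had a log2 change of 0.25 (adjusted p = 0.186) and Rfwd2 (COP1), another ubiquitin ligase for p53, one of -0.024 (adjusted p = 0.802).

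Targets that promote apoptosis were called higher in 10 of 14 tested members and lower in none, against 32.2% and 35.0% of all genes tested (median 0.58), led by Perp (2.12), Pmaip1 (1.55) and the death receptor gene Tnfrsf10b (0.87). Casp8ap2 (-0.019, limma adjusted p = 0.822) and Bcl2l11 (-0.00045, adjusted p = 0.996) were not called. The list was made by name, and whether p53 acts on these 2 genes was not tested. Leaving out control replicate 2 brought 1 member to a call in the lower direction.

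Of the targets in DNA repair and metabolism, 5 of 12 tested members were called higher and 4 lower, shares near those of all genes tested (32.2% and 35.0%), with a median log2 change of -0.033. Aldh4a1, an enzyme of proline breakdown, rose from 13.9 and 13.6 to 27.6 and 28.0 RPKM (log2 change 0.99) and Fdxr, ferredoxin reductase, from 14.5 and 13.6 to 22.9 and 23.6 RPKM (0.71). Gls2, the glutaminase that p53 is known to activate, fell from 14.0 and 14.1 to 8.39 and 8.81 RPKM (-0.68). The DNA damage sensor gene Xpc was at 8.19 and 7.62 RPKM with control siRNA, against 8.03 and 7.77 RPKM with Hnrnpk siRNA (0.00030, limma adjusted p = 0.997), and Cpt1c had a change of -0.066 (adjusted p = 0.583). Without Hnrnpk siRNA replicate 1, and likewise without replicate 2, the members called lower were 2.

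**Figure D5:**
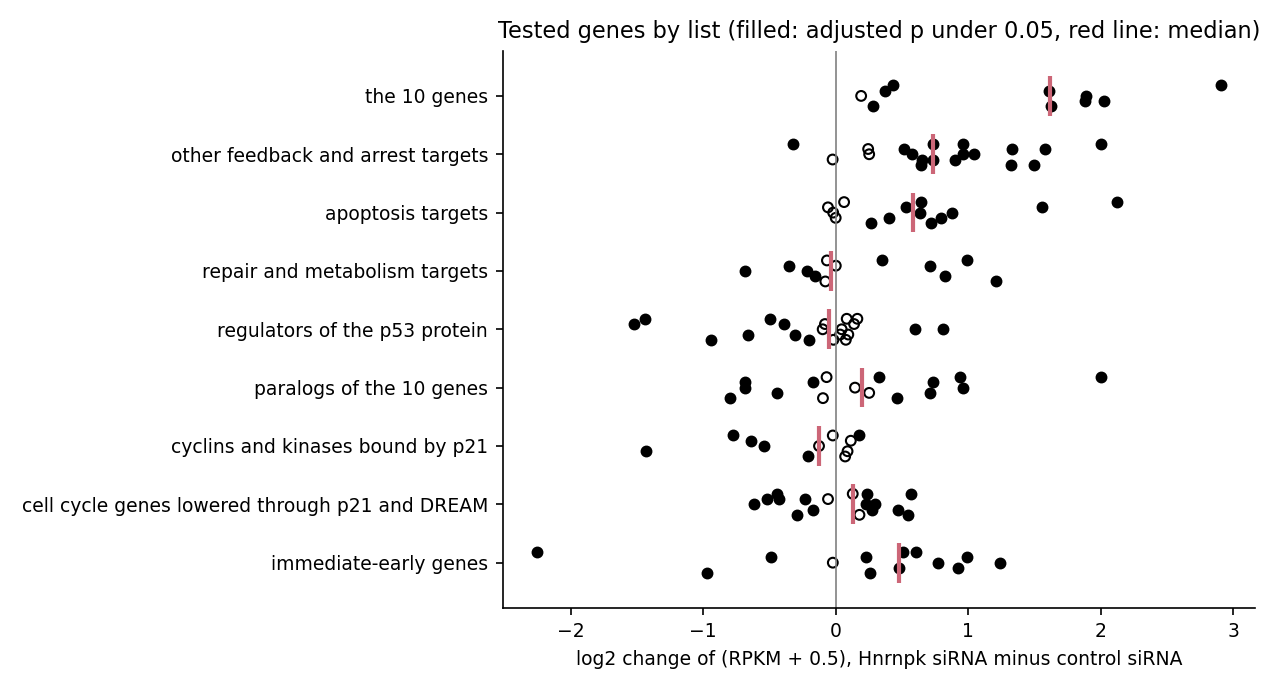
Log2 change after Hnrnpk siRNA of each tested gene of the 10 and of 8 further lists (points, filled where the adjusted p is under 0.05), with the median of each list in red. The medians are 1.62 for the 10 genes, 0.73 and 0.58 for the feedback or arrest and the apoptosis targets, and between -0.13 and 0.48 for the other lists.

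Among genes whose products act on the p53 protein, 8 of 20 tested members were called lower and 2 higher (median -0.049). The share called lower was near the 35.0% of all genes tested, and 32.2% of all were called higher. Atr, a checkpoint kinase that phosphorylates p53, fell from 11.7 and 12.3 to 4.21 and 3.55 RPKM (log2 change -1.52). The methyltransferase gene Setd7 fell from 5.58 and 5.33 to 1.77 and 1.63 RPKM (-1.44). Sirt1, whose product deacetylates p53, rose from 26.3 and 26.5 to 48.8 and 44.6 RPKM (0.81). Those 3 had limma adjusted p of 9.38e-07, 9.36e-07 and 6.24e-06, while Daxx (0.033, adjusted p = 0.650) and Chek1 (-0.017, adjusted p = 0.860) were not called.

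Paralogs of the 10 genes, some of which are p53 targets too, were called higher in 7 and lower in 5 of 16 tested members (median 0.20), beside 32.2% and 35.0% of all genes tested. Trp73 is in this list as well. Sesn2 rose from 53.4 and 60.9 to 93.6 and 96.4 RPKM (log2 change 0.73), and Sesn3 fell from 11.6 and 10.5 to 6.62 and 6.74 RPKM (-0.68, limma adjusted p = 4.62e-05). Sesn3 was named after its values were seen, and differences between the sestrins were not tested. Plk3 rose by 0.96, with limma adjusted p = 2.42e-05. Zmat4 (-0.069) and Btg3 (-0.096) were not called, at adjusted p of 0.556 and 0.462.

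Downstream of p21, the cyclins, kinases and PCNA that it binds were called lower in 5 and higher in 1 of 11 tested members (median -0.13), where 35.0% of all genes tested were called lower and 32.2% higher. Ccnd1, cyclin D1, fell from 35.0 and 42.8 to 22.8 and 22.1 RPKM (log2 change -0.77), its kinase partner Cdk6 fell by 0.64 on the log2 scale, and Ccne1, cyclin E1, fell from 164 and 178 to 112 and 123 RPKM (-0.54). The highest limma adjusted p of the 3 was 0.000141. Ccnd3 (0.071, adjusted p = 0.423) and Ccna2 (-0.022, adjusted p = 0.762) were not called. The 1 member called higher was Cdk1 (log2 change 0.18, adjusted p = 0.0352), named here after its value was seen. With all libraries kept, the members called higher fell to 0 with no filter, with quantile normalization and with limma without the trend. The count also changed in fits that left out a library.

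Cell cycle genes that p53 is known to lower through p21 and the DREAM repressor complex were called lower in 7 and higher in 7 of 17 tested members (median 0.13), near the shares of all genes tested (35.0% and 32.2%). Mcm6, a subunit of the replicative helicase, fell from 242 and 241 to 168 and 168 RPKM (log2 change -0.52) and E2f1 fell from 17.2 and 15.9 to 10.1 and 11.1 RPKM (-0.61). Cks1b, a subunit of cyclin-dependent kinases, rose from 137 and 146 to 205 and 214 RPKM (0.57). Their limma adjusted p were 6.12e-05, 8.28e-05 and 5.05e-05. Mcm5 (0.13, adjusted p = 0.126) and Foxm1 (-0.058, adjusted p = 0.457) were not called. The distribution of the cells over the cell cycle was not measured.

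Btg2 and Plk2 are also induced by growth factors and neural activity, so immediate-early genes were set beside them. Of 13 tested members 9 were called higher and 3 lower (median 0.48), against 32.2% and 35.0% of all genes tested. Egr1 fell from 20.5 and 24.2 to 4.31 and 4.24 RPKM (log2 change -2.25), whereas Jun rose from 2.01 and 1.83 to 4.17 and 4.44 RPKM (0.99) and Klf6 from 8.36 and 8.30 to 14.3 and 14.9 RPKM (0.77), with a highest limma adjusted p of 1.02e-05. Dusp6 had a change of 0.23 (adjusted p = 0.0365) and Ier2 of -0.022 (adjusted p = 0.805).

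Over the 4 libraries, the genes whose centred log2 profile lay closest to the mean profile of the 10 genes were Eda2r (root mean square difference 0.029), Nipal4 (0.031), AA467197 (0.035), Tctn1 (0.035) and Hyal1 (0.039), with log2 changes of 1.26 to 1.38. Closest to Cdkn1a alone were 4933402E13Rik (0.099), Ddit4l (0.10), Sdc4 (0.10), Snx20 (0.12) and Dkkl1 (0.13). With 4 libraries in 2 groups, this measure mostly finds genes with a change of the same size.

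Markers of other cell types moved in the same comparison. All 8 embryonic stem cell markers were expressed in every library at 94.2 RPKM or more, with summed levels of 2605 to 2715 RPKM in the control and 2490 to 2525 RPKM in the Hnrnpk siRNA libraries; 1 was called higher (Nanog) and 3 lower (Sox2, Utf1 and Tdgf1), beside 32.2% and 35.0% of all genes. The summed level of 6 primitive endoderm markers went from 5.17 to 5.20 RPKM in the control libraries to 30.3 to 30.9 RPKM with Hnrnpk siRNA. Trophectoderm markers, 6 in number, went from 30.3 to 35.9 RPKM up to 68.4 to 73.0 RPKM, with all 5 tested called higher, where 32.2% of all genes were. Most of that sum came from the keratin genes Krt8 and Krt18. They stood at 10.8 and 15.8 RPKM in control replicate 1, and at 21.2 and 30.9 RPKM in Hnrnpk siRNA replicate 1. Cdx2, the marker not tested, was at 0.166 and 0.303 RPKM with control siRNA, against 0.731 and 0.749 RPKM with Hnrnpk siRNA. The summed level of 4 markers of the two-cell-like state was 0.499 to 0.571 RPKM in the control and 25.7 to 29.1 RPKM in the Hnrnpk siRNA libraries. These 4, and Pdgfra among the primitive endoderm markers, reached the mean of 0.5 RPKM only through the Hnrnpk siRNA libraries, so calls in those lists are not counted. Fibroblast markers summed to 8.02 to 9.46 RPKM in the control and 4.08 to 4.32 RPKM in the Hnrnpk siRNA libraries, and 5 of the 7 were below 0.1 RPKM in every library. No named marker was listed at 0 in all libraries, apart from a second identifier of Dab2. The part of such cells in the changes of the 10 genes was not tested, and in bulk RNA more cells of a type and more RNA per cell cannot be told apart.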

How the data were processed

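Levels are RPKM for each gene and library, computed by the authors and deposited as a single table. The submitters' processing notes name BWA, SAMtools and the mouse build mm9; the sources used here do not give versions, the counting tool, the annotation or strandedness. The labels give the RNA as rRNA-depleted and also as poly(A)-selected, and sequencing as paired-end. Whole reads were not recovered, so no count model was used. Genes averaging 0.5 RPKM or more (12486 of 22138) were tested as log2(RPKM + 0.5), a scale that understates changes of low genes, with limma 3.58.1 in R 4.3.3 (mean-variance trend, two-sided, Benjamini-Hochberg over all genes tested). The procedure was tested on simulated data, and no outcome of that test is given here. Positions and overlaps were read from GENCODE M21 on GRCm38 by identifier (20551 matched). Stretches of near-identical sequence in other genes were searched for with BLAST 2.17.0 (95% identity, 100 bases, both strands). Only Cdkn1a and Zmat3 had any. In Cdkn1a they covered 12.6% of its longest coding transcript, all with AC167363.2, the opposite-strand gene that overlaps it. In Zmat3 they covered 3.44%, shared with 8 other genes.

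The 10 genes and the lists were chosen with earlier results of these data known. Named beside them are Hnrnpk, the 3 called members with the lowest p and the 2 with the highest p of each list other than markers, and the 5 genes closest in profile to the 10 genes and to Cdkn1a. Alternatives were an added 0.1 or 1 RPKM, testing every gene above 0 or only those averaging 1 RPKM or more, median-ratio scaling, quantile normalization, limma without the trend, the replicate number as a block, leaving out each library, and, chosen after seeing the data, removal of each library's trend on GC content. Cop1, Pidd1, Tigar and Tp53bp1 were read under other symbols in the table (Rfwd2, Lrdd, 9630033F20Rik and Trp53bp1); list names found under no symbol used were not analysed here.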

Additional observations from a re-analysis of the deposited data

How the results depend on the processing

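All 130 log2 changes of the 10 genes, recomputed under 13 alternatives, kept their direction, and 123 kept their side of the threshold. The exceptions were Mdm4, Zmat3 and Sesn1. Mdm4 was called with scaling by median ratios (0.21, limma adjusted p = 0.0366). Leaving out 1 library at a time gave 0.087 to 0.30 for Mdm4, 0.19 to 0.37 for Zmat3 and 0.29 to 0.46 for Sesn1. With no filter Zmat3 kept its change of 0.28 at an adjusted p of 0.0610, with more genes tested (18814).

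The labels number the replicates in both groups. Same-numbered libraries did not deviate together (correlation 0.027 over genes, which are not independent), so the numbers were not taken as pairs. With the replicate number as a block Mdm4 was called (0.19, adjusted p = 0.0133), no other call among the 10 genes changed, and 69.1% of all genes tested were called against 67.2% without it.

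Genes called lower with a log2 change of -1 or below numbered 564, but 860 with an added 0.1 RPKM and 365 with an added 1 RPKM. The absolute depth is unknown, so no counting error can be given. Levels are gene totals: the start used by Cdkn1a, Sesn1 or Mdm4 cannot be read from them.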
